A study of Mus musculus with 4 samples.

Results

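Toll-like receptors and Nod2 are the sensors by which cells of the gut wall recognise microbial molecules, and 10 of their genes were followed here in small intestine and colon of the mouse. The genes were Tlr1, Tlr2, Tlr3, Tlr4, Tlr5, Tlr6, Tlr7, Tlr9 and Nod2, together with the adaptor Myd88. They were taken by their symbols, and all 10 were found among 20921 genes assembled from RefSeq exons of the mouse assembly mm9. In the colon libraries Tlr1, Tlr2, Tlr4 and Tlr5 had higher levels than in the small intestine libraries of both sequencing protocols, whereas the level of Tlr7 was lower in colon by one protocol and higher by the other. Tlr3 and Myd88 differed by less than 2-fold in both protocols.

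The samples were whole tissue of small intestine and of colon from C57BL/6 mice aged 9 to 10 weeks, housed under SPF conditions, with no treatment or transgene named. The study's methods name jejunum and distal colon as the regions taken. How many mice went into a library is not given in the sources used here, while the study's text speaks of both tissues as coming from the same animals. Libraries of the first protocol (cDNA fragmented) were made from polyadenylated RNA by oligo-dT primed full-length cDNA synthesis and do not keep the strand. Those of the second protocol (RNA fragmented) keep the strand. RNA depleted of ribosomal RNA is what the labels name as their input, and they are called rRNA-depleted here. The RNA fragmented libraries described in the study's text are deeper and of longer reads, so the methods stated for those were not taken over for these. There was 1 library per tissue and protocol and therefore no replicate error. No test between tissues was run, and the intervals, at the 95% level, hold for counting error alone and leave out differences between animals and libraries. They are too narrow where reads were copied by PCR, since such reads are not separate molecules. All samples are bulk tissue, where fewer cells of a type and less RNA per cell cannot be told apart.

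Toll-like receptors are membrane proteins with leucine-rich repeats that bind a microbial ligand and an inner domain that recruits adaptors. Tlr1, Tlr2, Tlr4, Tlr5 and Tlr6 sit mainly at the cell surface, while Tlr3, Tlr7 and Tlr9 bind nucleic acids in endosomes. Myd88 carries the signal of all of these receptors except Tlr3, which uses Ticam1, and the pathway ends in NF-kB and interferon regulatory factors. Nod2 is a cytosolic sensor of muramyl dipeptide, a fragment of bacterial cell walls, and signals through the kinase Ripk2. In the gut these sensors are known from epithelial cells, macrophages, dendritic cells and lymphocytes.

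Uniquely placed reads numbered 22484041 in the cDNA fragmented small intestine library, 24798934 in the colon library of this protocol, 2035386 in the rRNA-depleted small intestine library and 3478387 in the rRNA-depleted colon library. Levels are given as RPKM, the reads per 1000 exonic bases and 1000000 uniquely placed reads. Where a library had no read of a gene, 3 reads were taken as the floor. The tissue labels held for 7 of 8 small intestine segment genes, which were at least 2-fold higher in small intestine in both protocols, and for 7 of 7 colon genes, which were higher in colon. The exception among the segment genes was Slc10a2, with the higher level in colon. Libraries also stood apart in other ways. Of 13 pancreatic acinar markers, 12 were at least 2-fold higher in the cDNA fragmented colon library and 10 in the rRNA-depleted small intestine library than in the other tissue of the same protocol. The cDNA fragmented small intestine library had 1751 reads of Xist, 0 of the Y-linked Eif2s3y and 19 of the Y-linked Ddx3y. The other libraries had 5 to 31, 40 to 1191 and 85 to 992 reads of these genes. Sex-linked genes thus differed between the tissues of the cDNA protocol, which goes against both libraries holding the same animals. In every cDNA ratio given below, tissue therefore cannot be told apart from sex and animal.

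Over all genes the ratio of colon to small intestine was not centred at 1. Its median log2 was 0.40 over 15887 genes with reads in both cDNA fragmented libraries and 0.34 over 14299 genes in the rRNA-depleted libraries. Differences of members are therefore also given relative to these medians.

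**Figure D1:**
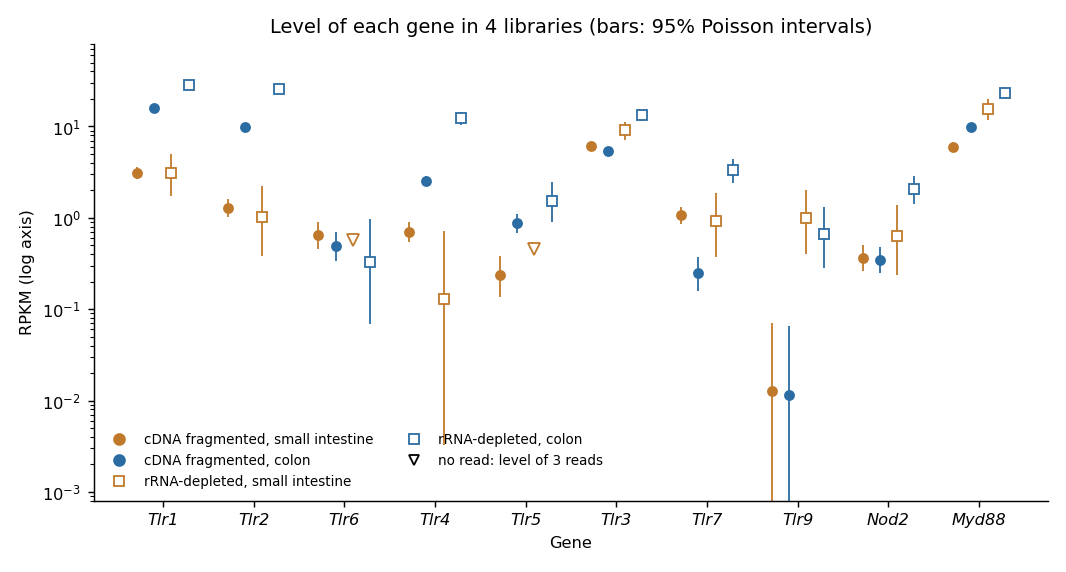
Level of each gene in RPKM on a log axis in the 4 libraries, with 95% Poisson intervals; filled circles are cDNA fragmented, open squares rRNA-depleted, and open triangles mark the level of 3 reads where a library had no read. The colon symbols of Tlr1, Tlr2, Tlr4 and Tlr5 lie above the small intestine symbols in both protocols, and intervals of the 2 cDNA symbols of Tlr9, at 1 read each, run below the axis.

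Tlr1 and Tlr2 had the highest levels of the 8 Toll-like receptors in both colon libraries. Tlr2 is the shared partner of the lipoprotein receptors and pairs with Tlr1 or Tlr6. Its gene (chr3:83640194-83645530, minus strand, 3 exons) had 83 reads in the cDNA fragmented small intestine library and 696 in the colon library, and 6 and 256 in the rRNA-depleted libraries. These are 1.29, 9.83, 1.03 and 25.8 RPKM in the same order. In both protocols the colon library was the high one, and its interval did not overlap that of small intestine. The ratio of colon to small intestine was 7.60 (exact interval 6.05 to 9.67) by cDNA and 25 (11.3 to 68.7) by rRNA depletion, the second resting on 6 reads in small intestine. Relative to the median of all genes the log2 difference was 2.52 and 4.30.

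Tlr1, which recognises triacylated lipoproteins together with Tlr2, lies on chr5:65316073-65323938 (minus strand, 3 exons). By cDNA it had 179 reads in small intestine and 1017 in colon, and by rRNA depletion 16 and 253. The levels were 3.10, 16, 3.06 and 28.3 RPKM, so both small intestine libraries were low and close to each other. The ratio of colon to small intestine was 5.15 (4.39 to 6.07) and 9.25 (5.59 to 16.4), and the log2 difference relative to the median of all genes was 1.96 and 2.87. Over the 1000 exonic bases at the 3′ end the log2 ratio by cDNA was 3.34, against 2.36 over the whole gene. In the cDNA fragmented colon library Tlr1 ranked 3713 by RPKM among 16845 genes with a read.

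Tlr6, the other partner of Tlr2, which recognises diacylated lipoproteins, is the neighbour of Tlr1 on the same chromosome (chr5:65344334-65351273, minus strand, 2 exons). There were 38 reads in small intestine and 32 in colon by cDNA, and 0 and 3 by rRNA depletion. The cDNA levels of 0.650 (0.460 to 0.892) and 0.496 (0.339 to 0.701) RPKM overlap. Both rRNA-depleted libraries are at or under the floor, so no ratio is given, and the floor of 3 reads stands for 0.567 RPKM in small intestine, where the exact Poisson interval of the empty count reaches 0.697. The order by cDNA depended on the reads used. With only the 1000 exonic bases at the 3′ end, where small intestine had 3 reads and colon 10, the log2 ratio was 1.60, past 2-fold towards colon, and with at most 1 mismatch it was 0.10, against -0.39 for all reads. In colon, Tlr1 and Tlr6 thus stood far apart in reads.

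Tlr1 and Tlr6 are near copies over part of their large coding exon, and this bears on how many reads could be placed there. The longest stretch without a difference runs over 229 bases, at chr5:65316776-65317004 in Tlr1 and chr5:65345067-65345295 in Tlr6 (NCBIM37, the assembly of mm9), inside the coding sequence of both. Both edges of this stretch are shown, with the first bases that differ beyond it. By the comparison of windows given below, windows across these edges still lie within 3 colors of the other gene, and few reads were placed there. The lines run 5′ to 3′ along the genes (minus strand), and capitals mark the bases that differ between the genes. The 5′ edge has 40 bases before the shared stretch and 20 bases of it:
Tlr1 (chr5:65316985-65317044): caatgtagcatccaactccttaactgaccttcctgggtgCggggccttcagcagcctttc
Tlr6 (chr5:65345276-65345335): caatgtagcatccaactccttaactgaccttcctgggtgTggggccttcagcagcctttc

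The 3′ edge has 20 bases of the shared stretch and the 40 bases after it:
Tlr1 (chr5:65316736-65316795): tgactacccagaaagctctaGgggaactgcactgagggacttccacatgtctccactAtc
Tlr6 (chr5:65345027-65345086): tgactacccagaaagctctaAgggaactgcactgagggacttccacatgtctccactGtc

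A read covers 35 bases and was placed with up to 3 color mismatches, where a color stands for a pair of neighbouring bases. Every window of 35 bases in the 10 genes was compared with all other windows of the deposited exons. In Tlr1, 853 of 2466 windows (34.6%) lay within 3 colors of a window in Tlr6, and 567 of them had the same colors. The other 8 genes had 0 to 10 windows each within 3 colors of another window. Where there were any, the nearest window lay in a gene outside the 10. In the cDNA fragmented colon library these 34.6% of windows held 44 of the 1012 reads in Tlr1 windows (4.35%), and in the rRNA-depleted colon library 2 of 248 (0.806%). RPKM over the whole exon length therefore understates both genes. When only windows that can be told apart were counted, Tlr1 reached 24.2 (22.7 to 25.8) and 43.8 (38.5 to 49.7) in the colon libraries of both protocols, in reads per 1000 such windows and 1000000 uniquely placed reads. Tlr6 then had 0.954 (0.668 to 1.32) in the cDNA fragmented small intestine library and 0.745 (0.506 to 1.06) in colon.

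**Figure D2:**
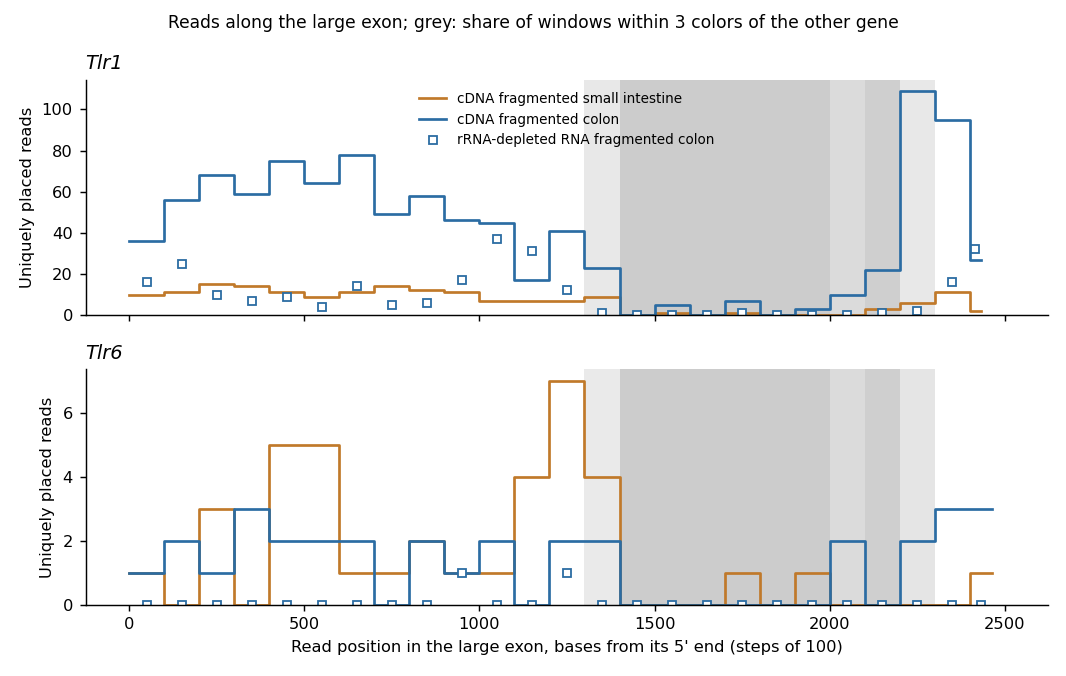
Uniquely placed reads per 100 read positions along the large exon of Tlr1 (above) and Tlr6 (below), from the 5′ end, for both cDNA fragmented libraries (lines) and the rRNA-depleted colon library (squares); grey is darker the larger the share of windows within 3 colors of the other gene, and the last step is shorter than 100 positions. From 1400 to 2000 bases all windows are grey, and the Tlr1 line of the colon library, between 17 and 95 where no window is grey, stays at 0 to 7.

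The receptor of lipopolysaccharide, Tlr4 (chr4:66488845-66503830, plus strand, 3 exons), had 61 reads in the cDNA fragmented small intestine library and 242 in colon. The rRNA-depleted small intestine library had a single read, and the colon library 164. The levels were 0.705, 2.54, 0.128 and 12.3 RPKM. In both protocols the colon library was high, and the intervals of the tissues did not overlap. By cDNA the ratio was 3.60 (2.71 to 4.84). By rRNA depletion it was 96.0, with an interval from 17 to 3813 because of the single read in small intestine. Among the partners of Tlr4, the co-receptor Cd14, which hands lipopolysaccharide to the receptor, was 3.75-fold (3.41 to 4.14) and 6.32-fold (3.31 to 13.6) higher in colon. Ly96 (MD-2), the part of the receptor complex that binds the lipid, had 230 and 302 reads by cDNA and 6 and 17 by rRNA depletion, with ratios of 1.19 (1.0 to 1.42) and 1.66 (0.624 to 5.14).

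Tlr5, the receptor of flagellin (chr1:184884919-184906175, plus strand, 4 exons), was among the lowest members in the small intestine libraries. Small intestine had 17 and colon 69 reads by cDNA, and by rRNA depletion there were 0 and 17. The colon levels were 0.870 and 1.53 RPKM, and the small intestine level by cDNA was 0.236 RPKM. By cDNA the ratio was 3.68 (2.14 to 6.68). By rRNA depletion the ratio was 3.32 with the empty library set to 3 reads, which is called its bound here. The exact interval of the ratio starts lower, at 2.41. All its levels lie below 2 RPKM, where a 3-fold rule that adds 1 RPKM to the divisor cannot be met.

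Among the receptors of nucleic acids no common direction was seen. Tlr3, which binds double-stranded RNA, lies on chr8:46481019-46495893 (minus strand, 7 exons). Its reads numbered 589 in small intestine and 579 in colon by cDNA and 80 and 200 by rRNA depletion, or 6.05, 5.40, 9.08 and 13.3 RPKM. The ratio of colon to small intestine was 0.891 (0.793 to 1.0) by cDNA and 1.46 (1.12 to 1.92) by rRNA depletion, with log2 differences of -0.57 and 0.21 relative to the median of all genes. In both small intestine libraries Tlr3 was the highest of the 8 Toll-like receptors, with 46.1% and 59.7% of their summed RPKM. In the colon libraries it made up 15.3% and 15.5% and came after Tlr1 and Tlr2. The order of tissues for Tlr3 depended on the part of the gene read. In the 1000 exonic bases at the 3′ end, the log2 ratio was 0.11 by cDNA and -0.56 by rRNA depletion, each with the opposite sign to the whole gene.

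Tlr7, which binds single-stranded RNA, is X-linked (chrX:163742863-163768460, minus strand, 3 exons). The cDNA fragmented libraries had 90 reads in small intestine and 23 in colon, and the rRNA-depleted ones 7 and 43. In RPKM these are 1.07, 0.248, 0.918 and 3.30. Small intestine was the high tissue by cDNA, with a level 4.32 times (2.71 to 7.15) that of colon. Colon was the high tissue by rRNA depletion, with a ratio of 3.59 (1.60 to 9.47). The small intestine levels of both protocols overlap in their intervals (0.859 to 1.31 and 0.369 to 1.89), so the protocols part in colon, where the rRNA-depleted level was 13.3 times (7.86 to 23.2) the cDNA level. The median of this ratio over all genes was 1.59 in colon.

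Other values were read beside those of Tlr7. Tlr8, its X-linked neighbour and another receptor of single-stranded RNA, had log2 ratios of -2.19 by cDNA (33 and 8 reads) and 0.81 by rRNA depletion (5 and 15 reads). The rRNA-depleted value of Tlr8 rests on few reads and did not reach 2-fold. The macrophage and dendritic cell markers had a median log2 ratio of -0.86 by cDNA, where all genes had 0.41, and 5 of 12 were at least 2-fold higher in small intestine, against 9.89% of genes. By rRNA depletion their median was 0.72, where all genes had 0.42, and 4 of 10 were 2-fold higher in colon, a share not far from the 29.1% of genes. Their summed level was 130 RPKM in small intestine and 132 in colon by cDNA, and 42.7 and 74.3 by rRNA depletion, with none of the 12 at 0 in any library. Emr1 (F4/80), a macrophage surface protein, went the same way as Tlr7, with 735 and 331 reads by cDNA and 21 and 115 by rRNA depletion. It was the only 1 of 10 markers counted in both protocols to be called in opposite directions. Mrc1, next in reads, had 401 and 337 by cDNA and 19 and 95 by rRNA depletion. Lyz2, the marker with most reads, was not lower in colon by cDNA (1923 and 2584 reads). It made up 80.9 and 98.6 RPKM of the summed cDNA level. The part of these cells, and of the sex-linked difference between the cDNA libraries, in the values of Tlr7 was not tested.

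Tlr9, the receptor of unmethylated CpG DNA (chr9:106124929-106129207, plus strand, 2 exons), was close to absent from the cDNA fragmented libraries, with 1 read in each. The shallower rRNA-depleted libraries had 7 reads in small intestine and 8 in colon, all on the strand of the gene and each at its own start point. The rRNA-depleted levels of 0.991 (0.398 to 2.04) and 0.663 (0.286 to 1.31) RPKM lie above the upper bounds by cDNA of 0.0714 and 0.0647. A difference between tissues was not detectable at this depth, with no ratio by cDNA, where both libraries are under the floor, and one of 0.669 (0.212 to 2.17) by rRNA depletion.

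Nod2, the cytosolic sensor (chr8:91171246-91212373, plus strand, 13 exons), was low throughout. By cDNA 38 reads were counted in small intestine and 40 in colon, and by rRNA depletion 6 and 33. The levels were 0.366, 0.349, 0.638 and 2.05 RPKM. By cDNA the tissues overlapped, with a ratio of 0.954 (0.597 to 1.53), and by rRNA depletion colon was 3.22 times higher (1.33 to 9.40). The largest exon, which holds 39.3% of the exonic bases, had 57.9%, 32.5%, 33.3% and 39.4% of the reads. Ripk2, the kinase that binds Nod2, was higher in colon in both protocols, at 5.16-fold (3.01 to 9.40) and 3.36-fold (1.57 to 8.25). Nod1, the related sensor of another cell wall fragment, was 3.22-fold (2.47 to 4.23) and 6.84-fold (3.88 to 13.1) higher in colon.

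Myd88, the common adaptor (chr9:119245106-119249158, minus strand, 6 exons), was measured with 257 and 463 reads by cDNA and 60 and 155 by rRNA depletion. Its level of 6.00, 9.80, 15.5 and 23.4 RPKM was higher in colon in both protocols, by a ratio of 1.63 (1.40 to 1.91) and 1.51 (1.12 to 2.07). Relative to the median of all genes the log2 difference was 0.30 and 0.25, from 0.71 and 0.60 before centring. Ticam1, the adaptor of Tlr3, had ratios of 0.789 (0.715 to 0.871) and 0.731 (0.608 to 0.879).

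**Figure D3:**
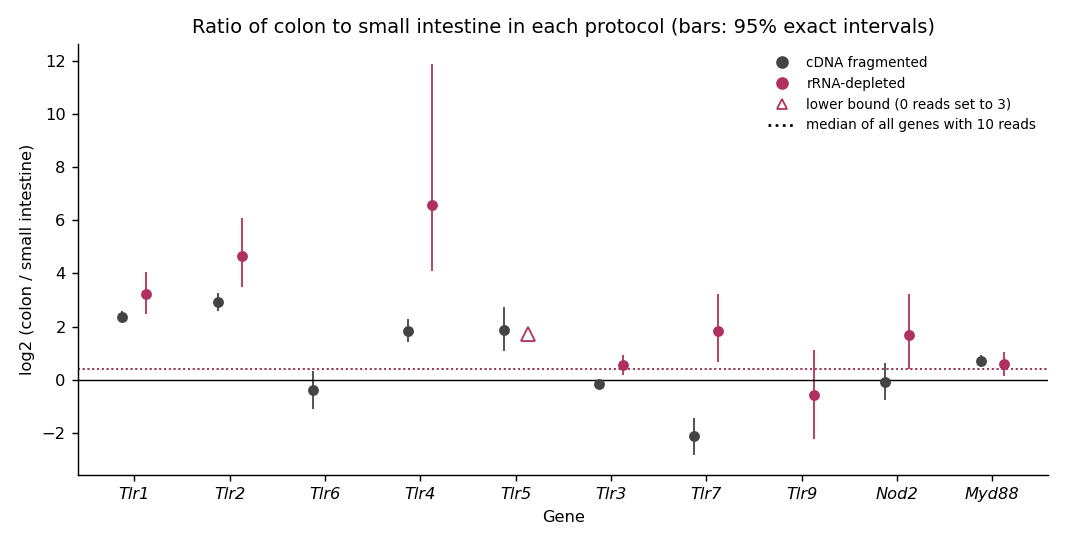
Log2 ratio of colon to small intestine for each gene by cDNA fragmentation (dark grey) and rRNA depletion (red) with 95% exact intervals. Dotted lines are the medians of all genes with at least 10 reads, 0.41 and 0.42. The open triangle is the bound of Tlr5, with 0 reads set to 3. Tlr1, Tlr2, Tlr4 and Tlr5 lie above the dotted lines in both protocols, Tlr7 lies on opposite sides of 0, and Tlr6 by rRNA depletion and Tlr9 by cDNA have no value, with at most 3 reads in each tissue.

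Counted over the members, 2 of 10 (Tlr1 and Tlr2) were at least 3-fold higher in colon by cDNA after a penalty of 1 RPKM was added to the divisor. The study set such a rule on FPKM of transcripts, whereas here it was applied to RPKM of genes. Of all 17244 genes with a read, 3.06% met this rule for colon and 2.6% for small intestine, where no member met it. By rRNA depletion 3 of 10 (Tlr1, Tlr2 and Tlr4) met it for colon and none for small intestine, against 6.17% and 3.57% of 16210 genes. With a plain 2-fold rule and at least 10 reads over both tissues, 9 members could be counted in each protocol. Tlr9 was too low by cDNA and Tlr6 by rRNA depletion, and Tlr2, Tlr4, Tlr5, Tlr7 and Nod2, with 0 to 7 reads in small intestine, passed the minimum by rRNA depletion only through colon. By cDNA 4 of the 9 were higher in colon (Tlr1, Tlr2, Tlr4 and Tlr5) and 1 in small intestine (Tlr7), where 27.2% and 9.89% of 15057 genes were. By rRNA depletion 6 of 9 were higher in colon, these 4 with Tlr7 and Nod2, and none in small intestine, against 29.1% and 12.8% of 13228 genes. For 5 of these 6 the minimum favoured the direction counted, so the count is a description only. In both protocols 4 of the 8 members counted in each were higher in colon, and none in small intestine. Over 13031 genes the shares were 14.3% and 5.2%. Of these 4 members, Tlr2, Tlr4 and Tlr5 passed the rRNA-depleted minimum only through colon, so this count is a description only as well.

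The median log2 ratio of the 9 members with 10 reads by cDNA was 0.71, where all genes had 0.41. By rRNA depletion the middle value of the 9 was the bound of Tlr5. With 5 of the 9 past the minimum only through colon, no median is set against all genes. Once the median of all genes was set to 0, colon had 51.8% and 51.9% of the 2-fold calls of all genes in place of 73.3% and 69.5%, a balance that the centring itself brings about. The share of genes called for colon was then 17% by cDNA and 20.1% by rRNA depletion, and for small intestine 15.8% and 18.6%. The calls of the members were the same under this centring.

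The smooth muscle markers were higher in colon as well. All 8 were at least 2-fold higher in colon in both protocols, against 14.3% of genes. The summed level of these markers was 308 RPKM in small intestine and 1281 in colon by cDNA, and 250 and 2445 by rRNA depletion. T cell markers went the other way, with 9 of 10 at least 2-fold lower in colon by cDNA, against 9.89% of genes. By rRNA depletion 6 of 8 were lower and 1 higher in colon, against 12.8% and 29.1% of genes. The summed level of the T cell markers was 463 and 30.3, and 95.4 and 17.6 RPKM. Of 9 B cell markers, 8 could be counted in each protocol. By cDNA 2 of them were 2-fold higher in small intestine, and by rRNA depletion 1 was in colon. Neutrophil markers summed to between 1.97 and 7.29 RPKM in all libraries. Endothelial markers had a median log2 ratio of 0.18 and 1.06, where all genes had 0.41 and 0.42. The part of these cell types in the receptor levels was not tested.

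In the rRNA-depleted colon library every read lay on the strand of its gene for all members but Tlr2, which had 9 reads of 256 on the other strand (96.5% sense, Wilson interval 93.5% to 98.1%). The library as a whole had 98.5% sense reads. No exon of a member shares bases with another gene. In the cDNA fragmented libraries, 49.9% of the Tlr2 reads in colon fell in the 1000 bases at the 3′ end, which are 35% of its exonic length, against 23.8% (19% to 29.4%) in the rRNA-depleted colon library. For Myd88, 69.5% and 58.7% of the colon reads were there, with 52.5% of the length. Not all members leaned to the 3′ end by cDNA. In the cDNA fragmented colon library the share of reads was also above the share of length for Tlr3, Tlr5 and Tlr7, with Wilson intervals that exclude it. It was below for Tlr1 (27.5% of reads, 39% of length), and the intervals of Tlr4, Tlr6 and Nod2 held it. In the small intestine library Tlr1 (14% of reads) and Tlr6 (7.89% of reads, 38.5% of length) were below, and the windows they share lie largely in this part. Coding bases are 48.8% of the exonic length of Myd88 and held 33.3% of its reads by cDNA and 43.9% by rRNA depletion in colon.

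**Figure D4:**
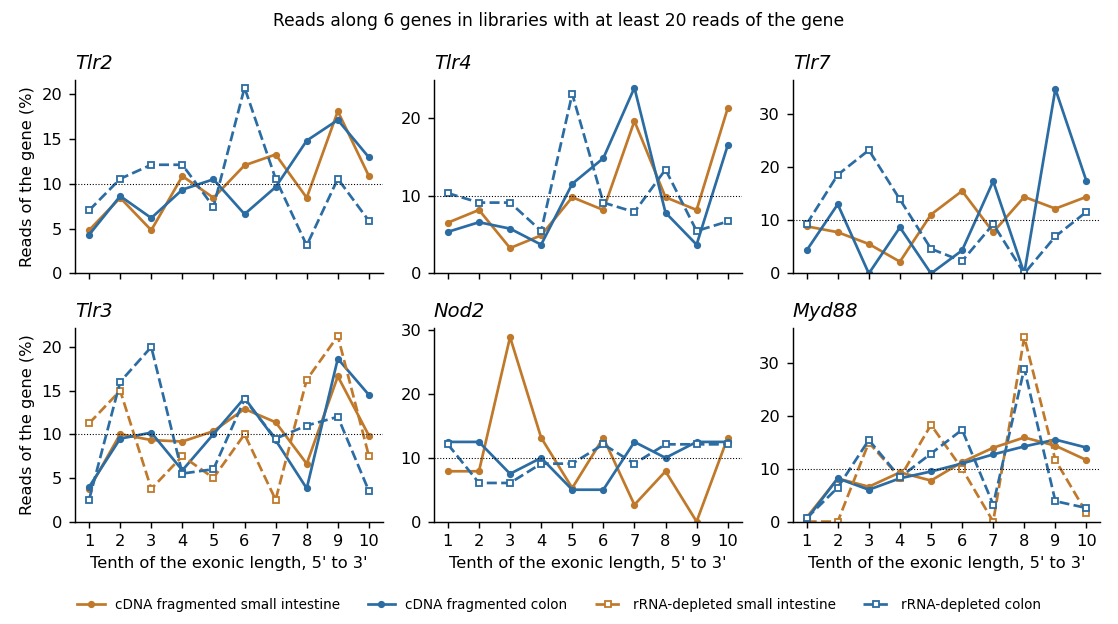
Share of the reads of a gene in each of 10 equal parts of its exonic length from 5′ to 3′, for 6 genes in libraries with at least 20 reads of the gene; the dotted line is the even share of 10%. In Tlr2 and Myd88 the cDNA lines climb towards the 3′ end, and in the rRNA-depleted libraries single parts stand out, such as part 8 of Myd88 in both tissues.

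Single positions carried part of the rRNA-depleted reads. The 253 Tlr1 reads of the rRNA-depleted colon library began at 126 start points, and 20 of them at a single one. The same held for 20 of the 200 Tlr3 reads (10.0%) and for 15 of the 164 Tlr4 reads (9.15%). In the cDNA fragmented libraries no read began at any of these 3 positions. The stretches of 35 bases covered by the Tlr3 and Tlr4 reads, both in coding sequence, are shown because no other start point of these genes held more reads, written 5′ to 3′ along the gene in lower case throughout:
Tlr3 (chr8:46484523-46484557, minus strand): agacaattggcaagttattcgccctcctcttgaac
Tlr4 (chr4:66501636-66501670, plus strand): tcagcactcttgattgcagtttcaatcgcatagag

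With each start point counted once, the log2 ratio of Tlr1 by rRNA depletion was 2.40 in place of 3.21, and it stayed above 2-fold. That of Tlr4 was 5.99 in place of 6.58, that of Tlr7 2.40 in place of 1.85, and the bound of Tlr5 1.23 in place of 1.73. The 17 colon reads of Tlr5 had 12 start points, with 4 reads at a single one.

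The rest of the pathway did not share one direction. Of the 25 other pattern recognition receptors, 22 had 10 reads in both protocols, and 4 of them (Nod1, Nlrx1, Aim2 and Naip1) were at least 2-fold higher in colon in both. Another 5 were higher in small intestine in both: Nlrc5, Ddx58, Tlr12, Naip5 and Nlrc3. Over 13031 genes, 14.3% were higher in colon in both protocols and 5.2% in small intestine. These shares are the background for the counts of the other pathway lists as well. Aim2, a sensor of cytosolic DNA, was 10.6-fold (8.52 to 13.4) and 3.08-fold (2.09 to 4.68) higher in colon. Ddx58 (RIG-I), a sensor of viral RNA, was 2.56 and 10.1 times higher in small intestine. The median log2 ratio of this list was -0.41 by cDNA and -0.36 by rRNA depletion, where all genes had 0.41 and 0.42. Naip1 and Naip5 belong to a family of near copies, so their reads may be divided unevenly between them.

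Among 11 co-receptors and trafficking genes, a list that also holds Tlr4, Cd14 and Tlr4 were higher in colon in both protocols. Cd36, a fatty acid and lipoprotein co-receptor, was 3.62 and 2.26 times higher in small intestine. Unc93b1, which carries the nucleic acid receptors to endosomes, had ratios of 0.877 (0.696 to 1.11) and 1.95 (1.40 to 2.75). Of 21 adaptors and proximal kinases with 10 reads in both protocols, Myd88 among them, 1 was higher in colon in both (Ripk2) and 2 in small intestine, Pik3ap1 and Tbk1, the latter at 2.0 and 2.76 times. Of 14 negative regulators, 3 were higher in colon in both, where 14.3% of 13031 genes were. Pparg, a nuclear receptor that restrains NF-kB and also acts in lipid metabolism, was 19.7-fold (16.7 to 23.5) and 8.75-fold (5.62 to 14.3) higher. Irak3, a kinase-like inhibitor of Toll-like receptor signalling, had ratios of 2.34 and 4.51, and Sigirr, an inhibitory receptor, 2.09 and 3.85. Il1rl1 was higher in small intestine. None of the 14 transcription factors and IKK subunits was 2-fold higher in colon in both protocols, and 1, Fos, was higher in small intestine, at 2.0 and 3.33 times.

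The inducible targets were split. Nos2, Reg3g and Reg3b were higher in small intestine in both protocols. Nos2, the inducible nitric oxide synthase, had 766 and 16 reads by cDNA and 125 and 8 by rRNA depletion. Reg3g and Reg3b, secreted antibacterial lectins, were 93.4 and 36.3 times higher in small intestine by cDNA and 12.5 and 6.28 times by rRNA depletion. Saa1, an acute phase protein, was 26.4-fold (23.9 to 29.3) higher in colon by cDNA and had a ratio of 115 (39.3 to 561) by rRNA depletion on 3 reads in small intestine. Il6 and Ifnb1 had 1 read or none in every library. Of the 24 targets, 10 had 10 reads in both protocols.

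**Figure D5:**
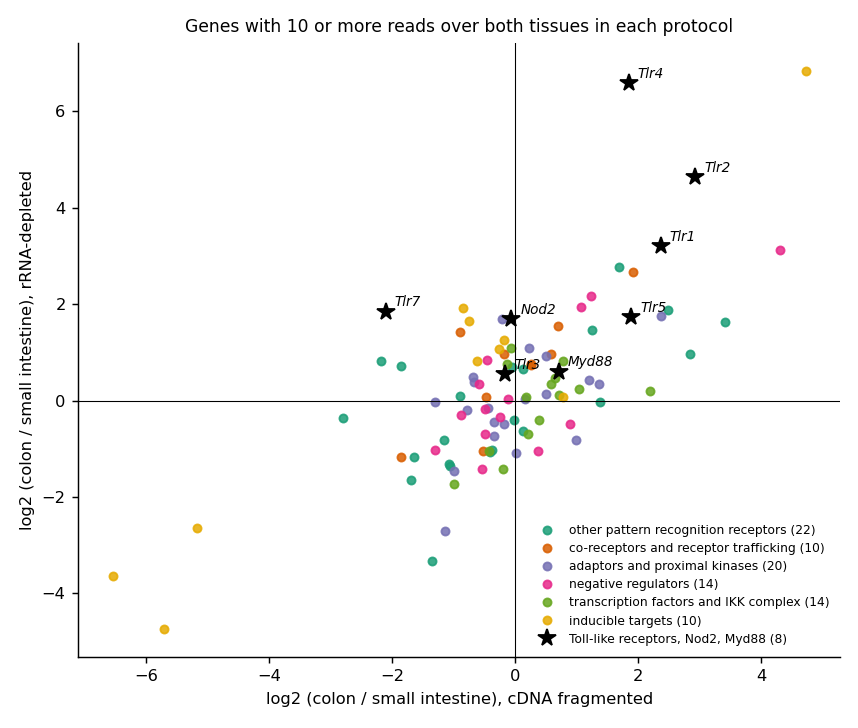
Log2 ratio of colon to small intestine by cDNA fragmentation (horizontal axis) and by rRNA depletion (vertical axis) for members (stars) and pathway genes (dots, colored by list, with the number of genes in brackets) with at least 10 reads over both tissues in each protocol; a count of 0 is set to 3 reads. Tlr1, Tlr2, Tlr4 and Tlr5 are in the upper right, Tlr7 in the upper left, and the 3 targets at the lower left are Nos2, Reg3g and Reg3b.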

How the data were processed

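The authors deposited, for each of 4 libraries, the positions, strands and mismatches of uniquely placed SOLiD reads, a report with numbers of reads, and tables of RefSeq exons and junctions of mm9; no counts per gene or normalized values were used. The authors had matched reads over 35 colors, with at most 3 mismatches, to these exons and junctions. Read and start point numbers equalled those in the reports. Exons were joined to genes with GENCODE M1 on the same assembly, and each read was given to the exon holding its midpoint. RPKM used all uniquely placed reads as the total (22484041, 24798934, 2035386 and 3478387). Intervals were exact Poisson for levels, exact conditional binomial for ratios and Wilson for shares. Calls used 3-fold with a penalty of 1 RPKM, after a rule the study set on FPKM of transcripts, and 2-fold with at least 10 reads. Python 3.11.15 with numpy 2.4.6, pandas 2.3.3, scipy 1.17.1, numba 0.67.0 and matplotlib 3.10.9 was used. Calls and ratio intervals were tested on simulated Poisson counts, which hold no reads copied by PCR. The members and gene lists were chosen with earlier results of these data known. Named were all members, at most 5 genes per pathway list that passed 2-fold in both protocols, at most 3 per marker list with most reads, and genes that bear on a member. Direct partners of a member and genes near 0 were named after their values were seen. Alternatives were fewer mismatches, start points, size factors, sense reads, the 3′ end, unshared blocks, another penalty and no minimum; junction reads and placeable windows were added after seeing the data.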

Additional observations from a re-analysis of the deposited data

Results flagged for a closer look

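Tlr7 went in opposite directions in the 2 protocols. Its log2 ratio of colon to small intestine was -2.11 by cDNA fragmentation and 1.85 by rRNA depletion, each from 1 library per tissue, and the difference was not tested. The direction in each protocol was the same with fewer mismatches, start points, size factors and the 3′ end. By rRNA depletion the 3′ end held only 1 read in small intestine and 8 in colon. The whole gene had 7 small intestine reads at 4 start points in that protocol, so these alternatives say little about it. Sense reads for rRNA depletion, unshared blocks, junction reads and windows that can be told apart left the Tlr7 reads unchanged. The alternatives that left the reads unchanged could not alter its ratios.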

How the results depend on the processing

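Under a penalty of 0.1 RPKM the number of members past the 3-fold rule was 4 by cDNA (3 higher in colon, Tlr7 in small intestine) and 6 by rRNA depletion, in place of 2 and 3. With only the 1000 bases at the 3′ end, 3 members were past 2-fold by rRNA depletion in place of 6, without Tlr5, Tlr7 and Nod2, as fewer reads were counted. By cDNA 6 members were then past 2-fold in place of 5, with Tlr6 (log2 ratio 1.60) added for colon. Tlr6 and Nod2 by cDNA, not called over the whole gene, had the opposite sign there (1.60 and 0.86) and with at most 1 mismatch (0.10 and 0.20). The cause was not tested. At the 3′ end the log2 ratio of Tlr1 by cDNA was 3.34 in place of 2.36, and by rRNA depletion, with no read left in small intestine, the bounds of Tlr2, Tlr4 and Tlr5 were 3.57, 2.55 and 0.64 in place of ratios of 4.64 and 6.58 and a bound of 1.73. Of 135 ratios of single members under an alternative, 121 stayed inside the counting interval, 14 moved out of it, and no called ratio changed sign. Many of the 121 could hardly move, so their number is no measure of stability. Unshared blocks changed no ratio because no member has a shared exon. Junction reads and windows that can be told apart left most members with the same or nearly the same reads. No paired analysis was possible because the labels give no replicate numbers and each tissue and protocol has 1 library, which also leaves no library to leave out. A fit over all 4 libraries with the protocol as block would have 1 residual degree of freedom and was not run. Other counts stayed within 1.5-fold under the alternatives run. The rRNA-depleted small intestine library, with 0 to 16 reads for 8 of 10 members, limits their ratios by its depth. Reads from outside RefSeq exons could not be counted.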
